A study of Mus musculus with 5 samples.

Results

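Prdm1, Irf4, Xbp1, Pou2af1, Zbtb20, Ikzf1, Ikzf3, Ell2 and Eaf2 encode transcription and elongation factors of plasma cells (PCs), and their transcripts were followed in mouse bone marrow PCs after culture and directly ex vivo. All probe sets that the platform annotation assigns to 1 of these 9 symbols and to no other gene were taken, which gave 25 of 45037 probe sets, for 9 of 18193 genes. Of these, 24 reached an intensity of at least 50 on at least 2 of 5 arrays and were tested, among 30477 probe sets in all. Cultured PCs (3 arrays) had been kept for 3 days on ST2 cells, a murine bone marrow stromal line, with the cytokine APRIL at the oxygen level of the tissue. Ex vivo PCs (2 arrays) went into RNA preparation right after isolation. Both came from wild-type C57BL/6J mice that had been immunized and boosted with a hapten coupled to chicken gamma globulin, and both were first isolated with magnetic beads as CD138high cells after depletion of B220+ and CD49b+ cells. Only the cultured cells were afterwards sorted by flow cytometry, so the sort and the culture cannot be told apart. There were 2 experiments. Experiment 2 gave 2 cultured arrays and 1 ex vivo array, and experiment 1 gave 1 of each. The labels do not say whether the 2 cultured arrays of experiment 2 came from separate cultures or how many mice were pooled, so p-values measure the spread between these arrays, which may be partly technical.

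BLIMP-1 (Prdm1), IRF4 and XBP1 are the central regulators of the PC state. IRF4 activates Prdm1, BLIMP-1 represses the B cell programme and XBP1 drives the expansion of the secretory apparatus. ELL2 is an elongation factor of RNA polymerase II that in PCs favours the secreted over the membrane form of immunoglobulin heavy chain mRNA, and EAF2 binds factors of the ELL family. PCs of the bone marrow are known to keep this programme for as long as they survive.

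PC markers were measured in all samples. Culture was tested in an unpaired fit of all 5 arrays, as the study's methods state no covariate, and in a paired fit with a term for the experiment. All 10 PC markers listed were measured and none differed in limma's test (0 at an adjusted p under 0.05 in the unpaired and in the paired fit, 1 and 3 at an unadjusted p under 0.05). Among all 30477 tested probe sets, 2007 and 5627 had an unadjusted p under 0.05 in these fits. Sdc1, which encodes CD138, was at 12.56 ± 0.24 (SD, n = 3) in cultured and 12.74 ± 0.29 (SD, n = 2) in ex vivo PCs on the log2 intensity scale used throughout. Jchain, the joining chain of secreted antibody, was at 13.57 in cultured and 13.67 in ex vivo PCs, and Mzb1, a chaperone of immunoglobulin, at 12.94 in cultured and 12.81 in ex vivo PCs. The nearest to the threshold was Fkbp11, a peptidyl-prolyl isomerase of the endoplasmic reticulum, at 9.65 ± 0.40 in cultured and 10.58 ± 0.12 in ex vivo PCs (adjusted p = 0.0503, limma, paired fit). In every pair of an experiment 6 of the 10 PC markers were lower and 3 higher, beside 29.7% and 18.9% of all genes. The median of the 10 was -0.18 in the paired fit, against -0.048 over all genes. Markers of stromal cells moved with culture. Of 12 measured stromal markers, 2 rose in the unpaired fit, and 8 rose and 1 fell in the paired fit. Their summed intensity lay between 4990 and 14700 in cultured samples and between 813 and 899 in ex vivo samples, and was higher in both cultured arrays of experiment 2 than in that of experiment 1. Of 8 macrophage markers, 1 rose and 4 fell in the paired fit, with sums of 1470 to 1860 in cultured and 1590 to 2050 in ex vivo samples. In every pair of an experiment 5 of these 8 were lower and 1 higher, with a median of -1.44 in the paired fit. Of 8 B cell markers 2 fell, with sums of 10600 to 11700 in cultured and 11700 to 12100 in ex vivo samples. Of these 8, 5 were lower and 1 higher in every pair, with a median of -0.26 in the paired fit. Of 7 T and NK cell markers 1 fell (1400 to 2110 in cultured, 1320 to 1790 in ex vivo samples). None of 6 granulocyte markers (8190 to 9410 in cultured, 5630 to 6690 in ex vivo samples) or 2 erythroid markers (122 to 134 in cultured, 101 to 131 in ex vivo samples) passed. The granulocyte sums followed Prg2, the major basic protein of eosinophils (13.04 in cultured, 12.45 in ex vivo PCs), while 4 of the 6 were lower and 1 higher in every pair of an experiment (median -0.58 in the paired fit). The part of such cells in the values that follow was not tested. In bulk RNA, fewer cells of a type and less RNA per cell cannot be told apart.

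Most of the PC factors stayed close to their ex vivo level in culture, as did most of all tested probe sets. In the unpaired fit none of the 24 probe sets differed between cultured and ex vivo PCs (limma, smallest adjusted p = 0.223), where 0.0459% of all tested probe sets did. An unadjusted p under 0.05 was found on 2 of the 24, beside 2007 of all 30477 tested probe sets. In the paired fit these counts were 4 and 5627. In the paired fit 1 of 24 rose, a probe set of Ikzf3, and none fell, beside 1.24% that rose and 0.561% that fell among all tested probe sets (1.8% in all). The median log2 difference of the 24 was -0.037 in the paired fit, against -0.015 over all tested probe sets. Every cultured array lay above both ex vivo arrays on 3 of the 24 and below both on 3, beside 9.42% and 10.6% of all. In size, 22 of the 24 lay within 0.5 of no difference, as did 90.9% of all probe sets, and for 23 of the 24 the 95% interval lay within 1 log2 unit on either side, as it did for 93.3% of all. The exceptions in size were Eaf2, with lower values in culture, and 1 dim probe set of Ikzf3.

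**Figure D1:**
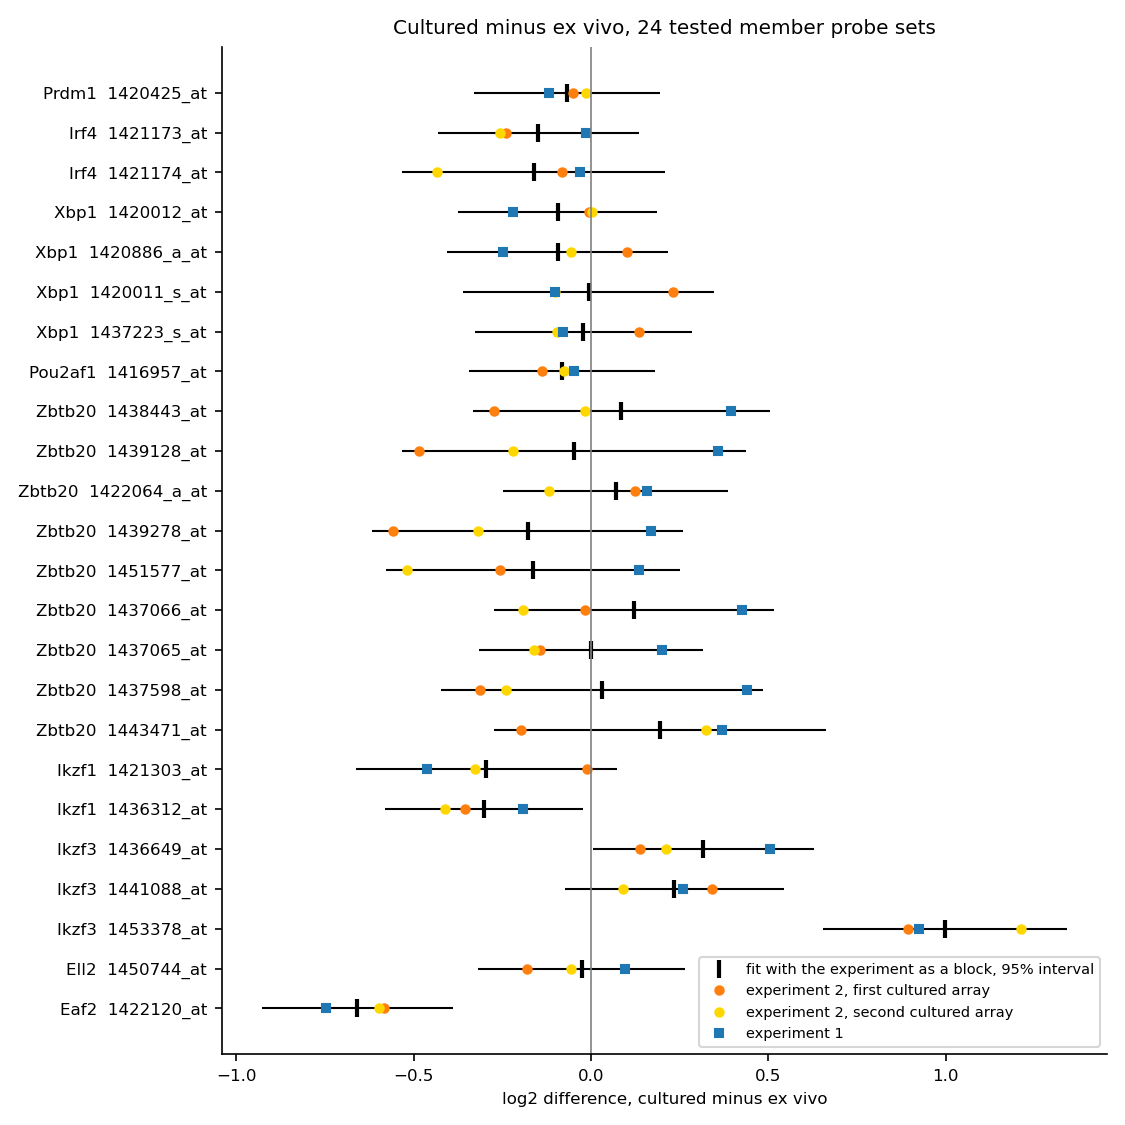
Log2 difference of cultured minus ex vivo PCs for each of the 24 tested probe sets. Round points are the 2 cultured arrays of experiment 2 minus its ex vivo array, squares are experiment 1 (n = 1 against 1), and black bars with lines are limma's paired estimate and its 95% interval. All 3 points lie above 0 on 3 of the 24, all of Ikzf3, and below 0 on 7, Eaf2 among them. Among all tested probe sets these shares were 23.1% and 24.9%. The points of each Zbtb20 probe set lie on both sides.

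Prdm1 encodes BLIMP-1, the zinc finger repressor that defines PCs, and has 1 probe set. It was at 11.54 and 11.58 in the cultured arrays of experiment 2 and at 11.86 in that of experiment 1, against 11.59 ex vivo in experiment 2 and 11.97 ex vivo in experiment 1. The groups overlapped, and both samples of experiment 1 lay above all samples of experiment 2. The log2 difference was -0.068 in limma's paired fit (95% interval -0.33 to 0.19, adjusted p = 0.779) and -0.12 in the unpaired one (adjusted p = 0.933). Within the experiments it was -0.049 and -0.013 in experiment 2 and -0.12 in experiment 1.

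Irf4 encodes the interferon regulatory factor on which PC survival depends. On the brighter of its 2 probe sets it was at 12.59, 12.57 and 12.53 in cultured PCs (both arrays of experiment 2, then experiment 1), against 12.83 and 12.54 ex vivo (experiment 2, then experiment 1, the order of all such values that follow). The cultured values lay close together and only the ex vivo array of experiment 2 stood above them by more than their spread. The other probe set gave 12.01, 11.66 and 11.78, against 12.09 and 11.81. Both probe sets were lower in every pair of an experiment, as were 24.9% of all tested probe sets, with log2 differences of -0.15 (95% interval -0.43 to 0.14, adjusted p = 0.547, limma, paired fit) and -0.16 (-0.53 to 0.21, adjusted p = 0.618). Pair by pair the differences ranged from -0.43 to -0.082 in experiment 2, and was -0.015 and -0.032 in experiment 1.

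Xbp1 encodes the transcription factor made in its active form after IRE1 splices its mRNA, which these values do not resolve. Its 4 probe sets gave similar estimates for culture in the paired fit, with log2 differences between -0.094 and -0.0066 (smallest adjusted p = 0.708, limma). That spread of 0.0874 between probe sets of 1 gene compares with a median of 0.382 over the 1256 genes that have at least 4 tested probe sets. Of these, 1229 had a spread at least as wide. The spread is the highest minus the lowest value and tends to widen with more probe sets. Xbp1 has 4, the fewest in this set of genes. The brightest was at 13.96, 13.97 and 13.38 in cultured PCs, against 13.96 and 13.60 ex vivo. Here the 3 arrays of experiment 2 were level with each other and both arrays of experiment 1 were lower. The next, 1420886_a_at, showed the same order, with 13.92, 13.76 and 13.28 in cultured PCs, against 13.81 and 13.53 ex vivo. The probe sets 1420011_s_at, at 12.87, 12.53 and 12.80, against 12.63 and 12.90, and 1437223_s_at, at 12.80, 12.57 and 12.75, against 12.66 and 12.83, did not, since their lowest value was the second cultured array of experiment 2. Cultured and ex vivo values overlapped on all 4. Pair by pair the differences ranged from -0.10 to 0.23 in experiment 2 and from -0.25 to -0.077 in experiment 1. No probe set of Xbp1 kept 1 direction in every pair. Over the probe sets of Prdm1, Irf4, Xbp1 and Pou2af1, the lowest and highest bounds of the 95% intervals were -0.53 on Irf4 and 0.35 on Xbp1 in the paired fit, and -0.64 and 0.62, both on Xbp1 1420012_at, in the unpaired fit.

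Pou2af1 encodes OCA-B, the B lineage coactivator that binds the octamer factors OCT1 and OCT2. Its 1 probe set was at 12.76, 12.82 and 12.84 in cultured PCs, against 12.90 and 12.89 ex vivo. Every cultured array lay below both ex vivo arrays, as for 10.6% of all tested probe sets, but by little. The SD was 0.043 (n = 3) in cultured and 0.0056 (n = 2) in ex vivo PCs. The log2 difference was -0.081 (95% interval -0.34 to 0.18, adjusted p = 0.732, limma, paired fit).

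The promoter windows of these factors were searched for motifs of the factors themselves, since several of them are known to act on one another's genes. RefSeq windows of 300 bases on GRCm38.p6, with 250 bases before and 50 after the start, were given for 8 of the 9 genes (11 windows, none for Ikzf3). Both strands were searched for the octamer ATGCAAAT, the ETS-IRF composite element, the XBP1 motif TGACGTGG, the Ikaros motif TGGGAA and the BLIMP-1 motif GTGAAAGT, and no match overlapped another. The XBP1 motif was found in 1 of the 11 windows, that of Pou2af1, beginning 61 bases before the start, and in 0.676% of 32851 windows in all. The Ikaros motif was found for 4 genes, Prdm1, Xbp1, Zbtb20 and Eaf2, and in 25.6% of all windows. The other 3 were found in none of the members' windows and in 1.74%, 2.72% and 0.846% of all windows. A match of letters is a description of the sequence and not a measured binding site. The stretches around the matches in Pou2af1 (chr9:51213593-51213672, plus strand), Prdm1 (chr10:44458896-44458973, minus strand) and Xbp1 (chr11:5520539-5520616, plus strand) are shown because they set the motifs of XBP1 and Ikaros in the promoters of 3 factors that did not pass for culture, with the matching letters in capitals.
Pou2af1: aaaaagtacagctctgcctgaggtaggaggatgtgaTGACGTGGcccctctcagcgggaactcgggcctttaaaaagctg
Prdm1: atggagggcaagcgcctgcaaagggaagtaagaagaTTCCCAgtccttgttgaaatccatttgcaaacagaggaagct
Xbp1: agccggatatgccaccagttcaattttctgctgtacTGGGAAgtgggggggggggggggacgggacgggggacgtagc
In Prdm1 the match reads on the opposite strand.

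**Figure D2:**
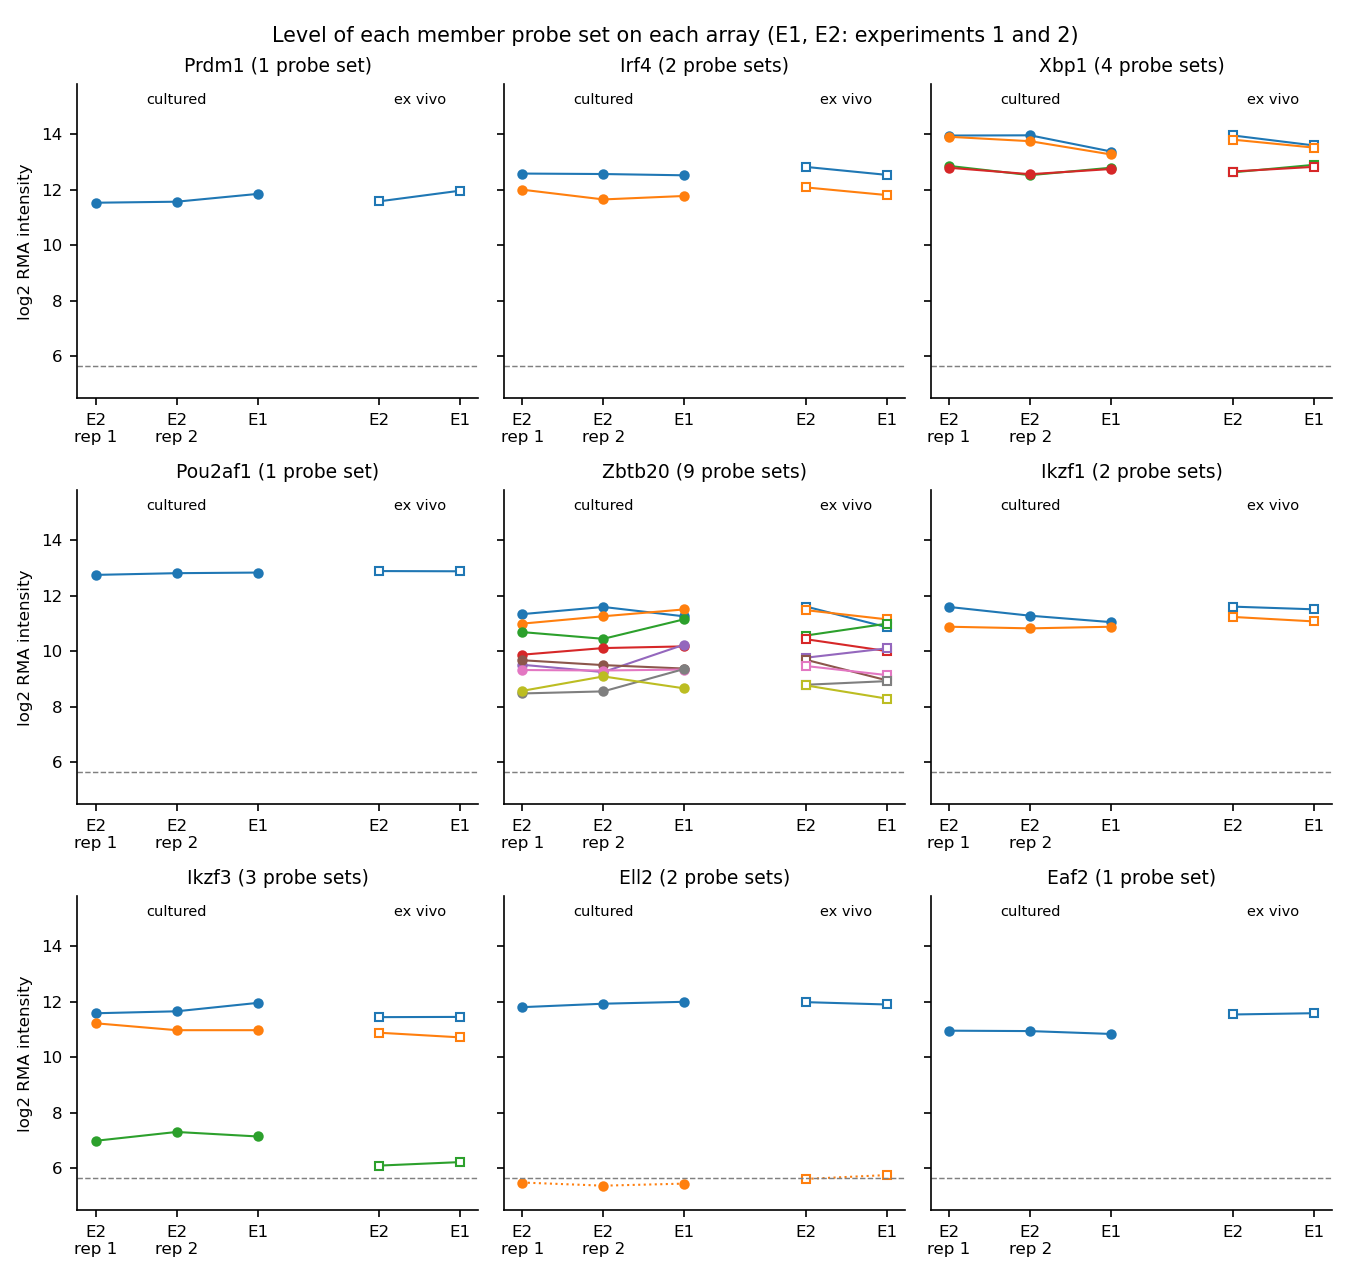
Level of every member probe set as log2 RMA intensity on each array, with cultured PCs on the left of each panel (filled circles, n = 3) and ex vivo PCs on the right (open squares, n = 2). Each line joins the values of 1 probe set within a group, the dashed line is an intensity of 50, and the dotted line is the probe set of Ell2 that was not tested. On Eaf2 the cultured values, 10.85 to 10.96, lie below both ex vivo values, as on 10.6% of all tested probe sets.

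Ikzf1 and Ikzf3 encode Ikaros and Aiolos, zinc finger factors of the lymphoid lineage that bind the same DNA core. Ikzf1 had lower values in culture on both probe sets and Ikzf3 had higher values in culture on all 3, in every pair of an experiment. Among all tested probe sets 24.9% were lower and 23.1% were higher in every pair. The brightest probe set of Ikzf1 was at 11.60, 11.29 and 11.06 in cultured PCs, against 11.61 and 11.52 ex vivo, so 1 cultured array reached the ex vivo level. The other was at 10.89, 10.83 and 10.89, against 11.24 and 11.08, without overlap, as in this direction for 10.6% of all tested probe sets. Their log2 differences were -0.29 (95% interval -0.66 to 0.073, adjusted p = 0.363) and -0.30 (-0.58 to -0.023, adjusted p = 0.241) in limma's paired fit, and neither passed.

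Of the 3 probe sets of Ikzf3, the brightest was at 11.59, 11.66 and 11.97 in cultured PCs, against 11.45 and 11.46 ex vivo. The next was at 11.23, 10.98 and 10.98, against 10.89 and 10.72. Their log2 differences of 0.32 (95% interval 0.0045 to 0.63, adjusted p = 0.266, limma, paired fit) and 0.23 (-0.074 to 0.54, adjusted p = 0.385) did not pass. The dim probe set 1453378_at was at 6.99, 7.31 and 7.15, against 6.10 and 6.23, and it rose in the paired fit, with a log2 difference of 1.00 (standard error 0.14, 95% interval 0.65 to 1.34, adjusted p = 0.0373) or 2.00-fold. Within the experiments it was higher by 0.89 and 1.21 in experiment 2 and by 0.92 in experiment 1. On none of the 3 did cultured and ex vivo values overlap, as was the case in this direction for 9.42% of all tested probe sets. Averaged over the probe sets of the gene, the dim one included, Ikzf3 passed in the paired fit (0.52, standard error 0.092, adjusted p = 0.0400, limma). This average did not pass in the unpaired fit (0.51, adjusted p = 0.225). The dim probe set gave 0.99 in the unpaired fit (adjusted p = 0.223), and in the paired fit it did not pass without the first or the second cultured array of experiment 2 (adjusted p = 0.0515 and 0.109) or when these 2 were averaged (adjusted p = 0.0673).

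Zbtb20 encodes a zinc finger repressor of the BTB family that promotes long-lived antibody responses in mice. Its 9 probe sets lay between 8.30 and 11.62 over the 5 arrays, and their log2 differences in the paired fit ran from -0.18 to 0.19, with 5 above and 4 below 0 (smallest adjusted p = 0.633, limma). The values of the 2 experiments lay on either side of no difference. In experiment 2 the differences of its probe sets ranged from -0.56 to 0.32, and in experiment 1 all 9 were positive, 0.14 to 0.44. Both cultured arrays of experiment 2 were lower than its ex vivo array on 7 of the 9, while that of experiment 1 was higher, a pattern found on 13.8% of all tested probe sets. The brightest probe set, 1438443_at, was at 11.34 and 11.60 in the cultured arrays of experiment 2 and 11.62 in its ex vivo array, and at 11.26 in the cultured and 10.87 in the ex vivo array of experiment 1. The probe set 1439278_at was in experiment 2 at 9.88 and 10.12 in the cultured arrays, against 10.44 ex vivo, and was at 10.18 in the cultured and 10.01 in the ex vivo array of experiment 1. Cultured and ex vivo values overlapped on all 9 probe sets. Limma's interaction term, with 1 residual degree of freedom, was negative on all 9 and passed on none (smallest adjusted p = 0.654). Over all 30477 probe sets 0% passed and 2008 had an unadjusted p under 0.05, among them the probe set 1437598_at of Zbtb20.

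The main probe set of Ell2 overlapped between the groups and that of Eaf2, whose product binds ELL factors, did not. The brighter probe set of Ell2 was at 11.81, 11.94 and 12.00 in cultured PCs, against 11.99 and 11.91 ex vivo. These values overlapped, and the log2 difference was -0.026 (95% interval -0.32 to 0.27, adjusted p = 0.932, limma, paired fit). The other probe set of Ell2 was at 5.49, 5.38 and 5.45, against 5.62 and 5.76, and reached the floor of 5.64 on 1 array, so that it was not tested. On this dim probe set all cultured values lay below both ex vivo values, as they did on 10.6% of all tested probe sets.

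Eaf2 was at 10.96, 10.95 and 10.85 in cultured PCs, against 11.55 and 11.59 ex vivo. The groups lay apart by far more than their own spread (SD 0.064, n = 3, in cultured and 0.033, n = 2, in ex vivo PCs). Every cultured array lay below both ex vivo arrays, as for 10.6% of all tested probe sets. The log2 difference was -0.58 and -0.60 in experiment 2 and -0.75 in experiment 1. In the paired fit it was -0.66 (standard error 0.11, 95% interval -0.93 to -0.39), a level in culture of 0.634 of that ex vivo. Its adjusted p was 0.0541 in limma's paired fit and 0.314 in the unpaired one, so Eaf2 did not pass in either. It passed in the paired fit when each array was centred on its median (adjusted p = 0.046), with an intensity trend in the variance (adjusted p = 0.0409), over the 10000 brightest probe sets (adjusted p = 0.0342) and when each gene's probe sets were averaged (adjusted p = 0.0237). It did not pass in the paired fit after quantile normalization (adjusted p = 0.0533), without a filter (adjusted p = 0.0789), without the first or the second cultured array of experiment 2 (adjusted p = 0.1002 and 0.209) or when these 2 were averaged (adjusted p = 0.136). The 2 B cell markers that fell in the same samples were Dntt, the terminal transferase of lymphocyte precursors (5.94 in cultured, 7.07 in ex vivo PCs, adjusted p = 0.0171, limma, paired fit), and Cd72 (5.93 in cultured, 6.70 in ex vivo PCs, adjusted p = 0.0395). Of the 8 measured B cell markers, 5 were lower and 1 higher in every pair of an experiment. The part of Dntt and Cd72 in the values of Eaf2 was not tested. The smallest two-sided p of an exact permutation test of 3 arrays against 2 is 0.1.

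Between the experiments 3 of the 24 probe sets differed, 1 of Xbp1 and 2 of Zbtb20. With culture as a covariate in limma, the one of Xbp1 was higher in experiment 2 and both of Zbtb20 were lower, where 13% of all tested probe sets were higher and 13.8% lower (26.8% in all). The probe set 1420012_at of Xbp1 passed with a log2 difference of 0.49 (standard error 0.11, adjusted p = 0.0298), and 1420886_a_at gave 0.44 (standard error 0.13, adjusted p = 0.0509). On 1437223_s_at and 1420011_s_at it was at -0.11 and -0.17 (adjusted p = 0.53 and 0.404). By the naming of the array maker, the suffix _s_at marks probe sets that can bind transcripts of more than 1 gene, although the annotation names Xbp1 alone for both.

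For Zbtb20 the experiment difference ran from -0.64 to 0.44 over the 9 probe sets, with 5 above and 4 below 0. The 2 that passed were lower in experiment 2, 1451577_at (-0.64, standard error 0.17, adjusted p = 0.0416) and 1422064_a_at (-0.52, standard error 0.13, adjusted p = 0.0345). On 1451577_at the values were 9.52, 9.26 and 10.25 in cultured PCs, against 9.77 and 10.11 ex vivo. On 1422064_a_at they were 10.70, 10.45 and 11.16, against 10.57 and 11.001. Both arrays of experiment 1 lay above all 3 of experiment 2 on both. The probe sets 1438443_at and 1437066_at gave 0.44 each (adjusted p = 0.108 and 0.0945), and 1437598_at gave -0.54 (adjusted p = 0.0803). A spread of this kind was common, since the median over genes with at least 4 tested probe sets was 0.979. At least as wide a spread as that of Zbtb20 was found for 537 of 1256 genes. Such a spread, the highest minus the lowest value, tends to widen with more probe sets, and Zbtb20 has 9. Prdm1 was at -0.34 (standard error 0.11, adjusted p = 0.0662) and passed when each array was centred on its median (-0.41, adjusted p = 0.0385) or given an intensity trend (adjusted p = 0.0378), and no probe set of Irf4, Pou2af1, Ikzf1, Ikzf3, Ell2 or Eaf2 passed. The control probe sets for the 3' and 5' ends of Actb and Gapdh moved with the experiments too. Their log2 ratio of 3' to 5' signal ranged from -0.12 to -0.01 for Actb and from 0.28 to 0.34 for Gapdh in the samples of experiment 2, and in those of experiment 1 it was 0.77 and 0.31 for Actb and 0.63 and 0.74 for Gapdh (cultured, then ex vivo). The part of RNA quality in the differences between probe sets was not tested. The count of 3 fell to 0 or 1 without any 1 of the 5 arrays and to 0 when both cultured arrays of experiment 2 were averaged.

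**Figure D3:**
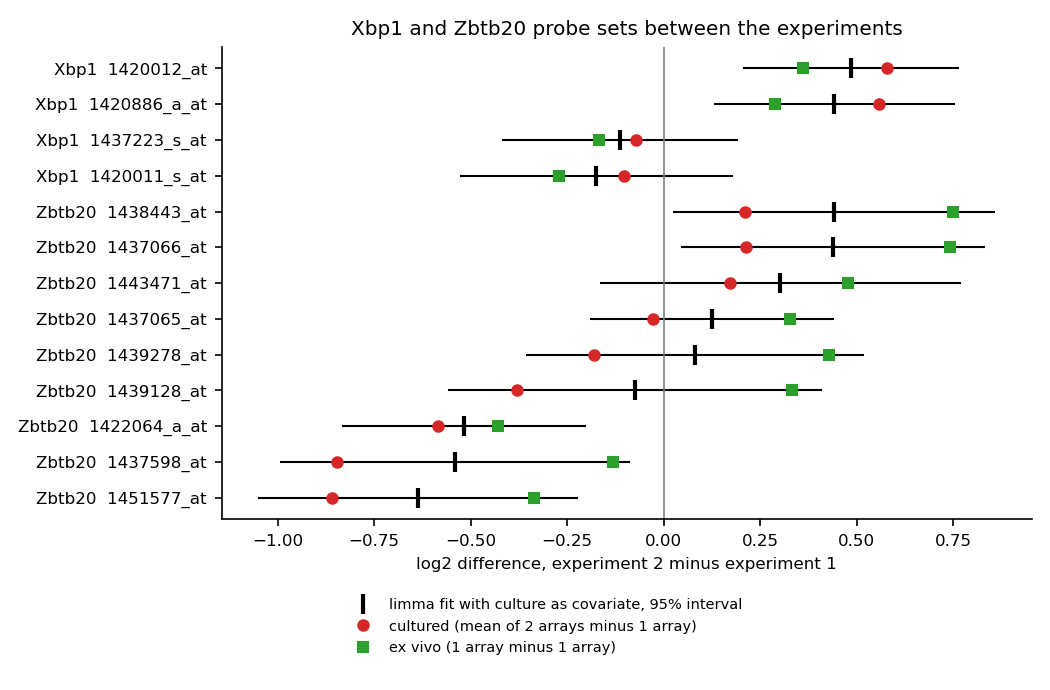
Log2 difference of experiment 2 minus experiment 1 for the 4 probe sets of Xbp1 and the 9 of Zbtb20. Circles are cultured PCs (mean of 2 arrays minus 1 array), squares are ex vivo PCs (1 array each), and black bars with lines are limma's estimate with culture as covariate and its 95% interval. The probe sets of both genes fall on both sides of 0, from 0.49 to -0.17 for Xbp1 and from 0.44 to -0.64 for Zbtb20.

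No gene known to work with these factors passed for culture. With 1 probe set per gene, the brightest of those tested, none of the 98 measured genes of 5 related lists passed limma's test in the unpaired or the paired fit (0 and 9 at an unadjusted p under 0.05), where 0.0589% and 1.74% of 13578 genes did. Among all 30477 tested probe sets, not reduced to 1 per gene, 2007 and 5627 had an unadjusted p under 0.05. The median log2 difference over all genes was -0.05 in the paired fit. Of 29 measured elongation factors of RNA polymerase II, the median was -0.084, with 2 higher and 7 lower in every pair of an experiment. Larp7, which differed most in the unpaired fit and holds the kinase P-TEFb in an inactive complex, was at 8.25 ± 0.61 (SD, n = 3) in cultured and 8.89 ± 0.45 (SD, n = 2) in ex vivo PCs (-0.64 in the unpaired and -0.50 in the paired fit, adjusted p = 0.863 and 0.156). Eaf1, the relative of Eaf2, was at -0.39 in the paired fit (adjusted p = 0.544). Aff4, the scaffold of the super elongation complex, was at 9.14 in cultured and 9.27 in ex vivo PCs. The 22 factors of mRNA 3' end processing had a median of 0.0028, with 1 higher and 4 lower in every pair, and Sympk and Srsf3 differed most in the unpaired fit (-0.45 and -0.40 there, -0.061 and -0.29 in the paired fit, paired adjusted p = 0.821 and 0.375).

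Of the 17 measured family members and DNA-binding partners, 5 were higher and 3 lower in every pair (median 0.026). Ets1, which encodes an ETS factor of lymphocytes, was at 9.48 ± 0.37 in cultured and 8.99 ± 0.29 in ex vivo PCs (0.57 in the paired fit, 95% interval 0.25 to 0.90, adjusted p = 0.107). Spib, another ETS gene and one that is silenced in PCs, was at -0.41 (adjusted p = 0.139). Among 9 measured B cell genes that BLIMP-1 is known to repress, none passed in either direction, 1 was higher and 3 lower in every pair, and the median was -0.050. Bach2, a repressor of PC differentiation, was at -0.68 (95% interval -1.14 to -0.22, adjusted p = 0.146) and Cd22, an inhibitory receptor of B cells, at -0.43 (adjusted p = 0.168). Of 21 measured targets of XBP1 none was higher and 10 were lower in every pair, where 18.9% and 29.7% of all genes were, and the median was -0.11. Syvn1, a ubiquitin ligase that clears misfolded proteins, was at -0.36 in the paired fit and the chaperone gene Dnajb11 at -0.36 (adjusted p = 0.376 and 0.229).

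**Figure D4:**
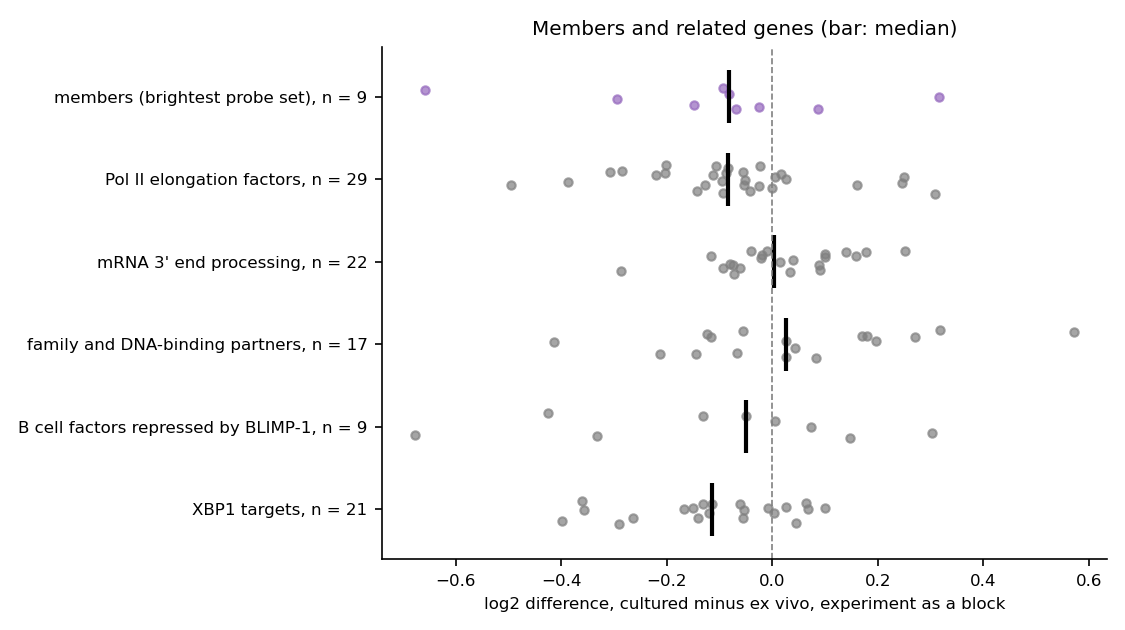
Log2 difference of cultured minus ex vivo PCs, from limma's paired fit, for the brightest probe set of each of the 9 members and of each measured gene in 5 related lists. Points are genes, spread vertically at random within a row, and black bars are medians. All medians lie between -0.11 and 0.026.

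The genes whose levels ran most alike over the 5 arrays were sought among 4524 genes with an SD of at least 0.3. Of the members themselves only Zbtb20 and Eaf2 reached that SD (0.31 and 0.36). It was 0.056 for Pou2af1, 0.077 for Ell2 and 0.12 for Irf4, so their r follows small differences. Pearson's r over 5 arrays, 2 to 3 of which share an experiment, is given as a description with no test. For Eaf2 the closest genes were Dntt and Il7r, which encodes a cytokine receptor of lymphocyte precursors, with r of 1.00 each after rounding, and 129 genes had an r of at least 0.9. Il7r was at 4.88 in cultured PCs, below the floor of 5.64, and at 6.65 in ex vivo PCs. Ikzf3 ran with the serine hydroxymethyltransferase gene Shmt2 and with S100a6 (r of 0.99 each), and Ell2 with Aff4 and Caap1 (r of 1.00 and 0.99). For Prdm1 1102 genes had an r of at least 0.9, Mxd4 and Zfp61 first, and for Xbp1 565 had one, 2610524H06Rik and Vps51 first. Between 24 and 135 genes had one for each of the other members, 135 of them for Pou2af1, with Gimap9 and Mis18a first, 108 for Zbtb20, with Smarca5 and Lcor first, and 24 for Ikzf1, with Krt222 and Pfdn4 first. Irf4 ran most like Pmp2 and P2ry14 (r of 0.98 and 0.97).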

How the data were processed

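Affymetrix GeneChip mouse arrays were hybridized with RNA of cultured and ex vivo PCs. The deposited values are intensities that the authors obtained with the affy package and RMA (background correction, normalization and summarization per probe set), with GCOS also named in the submitters' processing notes. Tool versions and a genome build were not given in the sources used here. These intensities (array medians 87.05 to 94.14) were converted to log2, and 64 control probe sets were left out. Their precision is limited by the number of arrays. Probe sets that reached 50 on 2 or more arrays were tested in R 4.3.3 with limma 3.58.1 (lmFit, eBayes, Benjamini-Hochberg over 30477 probe sets, adjusted p under 0.05), for culture alone (unpaired fit, since the methods name no covariate), for culture with a block for each experiment (paired fit), for the experiments adjusted for culture, and for the interaction. The experiment pairs the samples by the labels, and deviations from group means correlated at 0.56 and 0.72 in experiment 2 and 0.75 in experiment 1. These are not independent, since deviations within a pair of ex vivo arrays are opposite by construction. Symbols came from the platform annotation (34945 probe sets with 1 gene, 932 with several, 9160 with none listed here), updated through the RefSeq gene identifiers of GRCm38.p6. The members, gene lists and tests were chosen with earlier results of these data known. Named genes are all members, up to 4 called or the 2 most different genes of each related list, the 2 highest PC markers and the 2 genes most like a member, and Sdc1, Fkbp11, Dntt and Cd72 were picked with their values known. The fits were also run on simulated data in which every array had independent noise. Such data do not represent technical repeats, which the 2 cultured arrays of experiment 2 may be. Figures were drawn with matplotlib 3.10.9.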

Additional observations from a re-analysis of the deposited data

Results flagged for a closer look

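Several probe sets moved one way in experiment 2 and the other way in experiment 1. For Zbtb20 both cultured arrays of experiment 2 lay below its ex vivo array, whereas the cultured array of experiment 1 lay above its own, on 7 of 9 probe sets. The culture difference of experiment 2 minus that of experiment 1 was -0.72 on 1437598_at, -0.71 on 1439128_at, -0.61 on 1439278_at, -0.54 on 1438443_at, -0.53 on 1437066_at, -0.52 on 1451577_at and -0.35 on 1437065_at in log2 units. These probe sets share 1 gene and the same 5 arrays. The main probe set of Ell2, 1450744_at, gave -0.22 in the same direction. None passed limma's interaction test (adjusted p between 0.654 and 0.715), and 13.8% of all tested probe sets showed the pattern.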

How the results depend on the processing

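With only 5 arrays, 1 array decides several values. Without the block, none of the alternatives gave a called member for culture, among them averaging, other filters, other normalizations, an adjusted p under 0.1 and leaving out any array (0 to 0). With the experiment as a replicate block 1 probe set passed, and combined with the block 1 passed over the 10000 brightest probe sets (Eaf2, where the dim Ikzf3 probe set is left out), 1 after quantile normalization, 2 after median centring, 2 with an intensity trend and 2 with gene means, while 0 passed without a filter, with the cultured arrays of experiment 2 averaged or without either of them. These combinations beyond the block itself and the averaging were chosen after seeing the data. The block changed no other call among the members or the related lists. For the experiment, 3 probe sets passed, 0 with the cultured arrays of experiment 2 averaged, 5 over the 10000 brightest and 5 with an intensity trend, and 0 to 1 when an array was left out. The interaction gave 0 in every setting run. Of 144 alternative values of the members' culture differences, 9 changed sign, none of them called. Leaving out 1 array, Prdm1 ranged from -0.32 to 0.069, Irf4 from -0.27 to 0.021, Xbp1 from -0.19 to 0.18, Zbtb20 from -0.21 to 0.53 and Ell2 from -0.076 to 0.021, and quantile normalization put Xbp1 at 0.027. Pou2af1, Ikzf1, Ikzf3 and Eaf2 kept their direction in all settings run, but on their brightest probe sets Ikzf1, at -0.25 with all arrays, was at -0.12 without the cultured array of experiment 1 and at -0.39 without the first of experiment 2, and Ikzf3, at 0.28 with all arrays, was at 0.17 without the cultured array of experiment 1. The causes were not tested.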
